A study of Rattus norvegicus with 6 samples.

Results

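Ldha and Ldhb encode the subunits of lactate dehydrogenase, and Gapdh encodes the glycolytic enzyme glyceraldehyde-3-phosphate dehydrogenase. They were chosen by identifier (ENSRNOG00000013009, ENSRNOG00000013000 and ENSRNOG00000018630), and all 3 were found among the 26405 genes of the expression table. All 3 also passed the filter on low values, which kept 10258 genes. The table held 6 RNA-seq libraries, which the labels assign to primary smooth muscle cells cultured from small vessels of the rat. The series description gives wild-type rats and serum-starved cells. The 3 control cultures received fresh medium with neither serum nor growth factors and were harvested at 24 h, and the 3 cultures given Icariin, a flavonoid glycoside of Epimedium plants, were harvested at 48 h. By that description, Icariin and the longer culture cannot be told apart, whereas the study's methods give 24 h for both groups, and the sources used here do not settle which holds for these libraries. The labels give no dose and name neither the strain nor the animals behind each culture, so p-values measure only the spread between these libraries, which may be technical. Those methods describe RNA-sequencing, and state a dose, for the mouse myotube line C2C12, whereas the table lists rat Ensembl identifiers, and the names of the rat labels are used here.

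Lactate dehydrogenase works as a tetramer that interconverts pyruvate and lactate while NADH and NAD+ are exchanged. The A subunit, encoded by Ldha, predominates in glycolytic tissue such as fast skeletal muscle and is classically linked to lactate formation. The B subunit, encoded by Ldhb, predominates in oxidative tissue such as heart and is classically linked to lactate use. Gapdh carries out the step of glycolysis that makes NADH, which lactate dehydrogenase turns back into NAD+. Gapdh is also widely used as a reference gene, and the study normalized its quantitative PCR to it. The study assayed lactate dehydrogenase activity in lysates of C2C12 myotubes. That is enzyme activity, not mRNA, in cells other than those the rat labels name. The comparison here asks only what the mRNA of these enzymes did in the deposited libraries. Neither the activity assay nor the quantitative PCR of the study was tested by it.

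The promoters of the 3 genes are shown as background, and no motif was tested against expression. The sequences are from RefSeq, matched by symbol on the build GRCr8, and run from 250 bases before to 50 bases after the start of each gene. Ldha lies at chr1:106507842-106508141 on the plus strand, Ldhb at chr4:177177359-177177658 on the minus strand and Gapdh at chr4:159652418-159652717 on the minus strand. The letters are 5′ to 3′ on the strand of the gene, and capitals mark matches on either strand to TATAAA (the TATA box), CCAAT (the CAAT box), GGGCGG (the GC box), ACGTG (the core of hypoxia response elements), CACGTG (an E-box, which holds ACGTG and is also the core of the element bound by TFEB, the factor that the study followed) and TGACGTCA (the cyclic AMP response element).
Ldha: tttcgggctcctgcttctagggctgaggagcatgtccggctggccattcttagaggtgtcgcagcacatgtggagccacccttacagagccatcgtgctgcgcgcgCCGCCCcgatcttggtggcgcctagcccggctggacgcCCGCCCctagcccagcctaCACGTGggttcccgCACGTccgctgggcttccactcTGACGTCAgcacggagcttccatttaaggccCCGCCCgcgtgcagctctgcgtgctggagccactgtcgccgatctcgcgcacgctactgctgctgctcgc
Ldhb: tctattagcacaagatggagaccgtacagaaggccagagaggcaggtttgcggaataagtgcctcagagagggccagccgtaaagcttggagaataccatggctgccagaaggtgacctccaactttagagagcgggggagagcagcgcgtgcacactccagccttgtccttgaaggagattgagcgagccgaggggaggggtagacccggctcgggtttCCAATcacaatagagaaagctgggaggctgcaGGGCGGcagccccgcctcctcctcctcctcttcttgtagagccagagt
Gapdh: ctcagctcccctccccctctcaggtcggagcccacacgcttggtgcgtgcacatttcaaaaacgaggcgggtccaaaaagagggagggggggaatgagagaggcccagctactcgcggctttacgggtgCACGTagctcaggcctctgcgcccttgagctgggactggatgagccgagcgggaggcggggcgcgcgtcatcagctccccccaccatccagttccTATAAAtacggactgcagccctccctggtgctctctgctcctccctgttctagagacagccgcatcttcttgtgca

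The Ldha window held 3 matches to GGGCGG and 3 to ACGTG, with 1 CACGTG and 1 TGACGTCA among its letters, and no TATAAA. The ACGTG matches at -87 (minus strand) and -86 (plus strand) both lie in that CACGTG, which reads the same on either strand. They therefore mark 1 stretch, apart from the match at -73. The E-box CACGTG was present in 6.42% of the 33469 rat promoter windows of this length, TGACGTCA in 1.83%, ACGTG in 19.3% and GGGCGG in 33.1%. The Gapdh window shared ACGTG with Ldha, at 1 match, and had a TATAAA starting 26 bases before the start, a motif found in 14.2% of windows. The Ldhb window held 1 CCAAT, found in 37.5% of windows, and 1 GGGCGG, with none of the other motifs. The Ldha window was 66.7% G and C, the Gapdh window 62.3% and the Ldhb window 58.0%. These are descriptions of letters in a window, and no binding was measured.

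Expression is given as FPKM, the fragments of a gene per kilobase of its transcripts and per unit of library size, as deposited. Because FPKM is scaled to length, levels of different genes can be set side by side. The scale factors between libraries (median of ratios) ran from 1.09 to 1.28, small beside the differences described below. Among the libraries, 9 values of other genes reached 1e6 FPKM or more, and none of these was in Ldha, Ldhb or Gapdh. Read counts could not be recovered: among genes below 1 FPKM throughout, no ratio of a library to Control 1 recurred in more than 0.24% of them, so depth is unknown. The identifiers of other genes could not be paired with symbols, because the rat gene table holds 0 Ensembl identifiers. Markers of smooth muscle, of skeletal muscle and of other cells, other glycolytic enzymes and the lactate transporters were therefore not analysed here, and the labelled cell type was not checked. In bulk RNA, a change in the cells present and a change in RNA per cell cannot be told apart.

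Ldha was the most abundant of the 3 transcripts in 5 of the 6 libraries and also the most scattered among controls. Its level was 4.18 FPKM in Control 1, 284 in Control 2 and 83.5 in Control 3. It was 43.3 FPKM in Icariin 1, 405 in Icariin 2 and 685 in Icariin 3. The 2 highest values were Icariin libraries and the lowest was a control, but Icariin 1 lay below Control 2 and Control 3, so the groups overlapped. The controls averaged 124 ± 144 FPKM (SD, n = 3), and the Icariin libraries averaged 378 ± 322 FPKM (SD, n = 3). On the log2(FPKM + 1) scale, Ldha was 2.21 higher with Icariin (standard error 1.38, 95% interval -0.79 to 5.21), with an adjusted p of 0.623 from limma across all 10258 genes. That difference was 0.57 without Control 1, 3.46 without Control 2, 3.40 without Icariin 1 and 1.43 without Icariin 3, so each of these libraries moved it by more than 1.5 times. In Control 1 Ldha ranked 6089 of the 10258 genes from the top, whereas in Icariin 3 it ranked 74.

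The difference of Ldhb between the groups had the opposite sign. Ldhb was at 44.2, 103 and 65.4 FPKM in Control 1, 2 and 3, and at 1.52, 12.0 and 83.9 FPKM in Icariin 1, 2 and 3. The control values were close to each other, Icariin 1 and Icariin 2 lay below all of them, and Icariin 3 lay within the control range, so the groups overlapped. The controls averaged 70.9 ± 29.9 FPKM (SD, n = 3), against 32.5 ± 44.8 FPKM (SD, n = 3) with Icariin. The difference on the log2(FPKM + 1) scale was -2.27 (standard error 1.09, 95% interval -4.63 to 0.09, adjusted p = 0.495 from limma). Without Icariin 1 it was -1.03 and without Icariin 3 it was -3.57. From the top of the list, Ldhb ranked between 458 and 1057 in the controls, 8427 in Icariin 1, 3491 in Icariin 2 and 636 in Icariin 3.

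Gapdh, the common reference gene, spanned a wide range of levels. Its values were 3.52, 67.3 and 40.0 FPKM in Control 1, 2 and 3, and 16.3, 136 and 57.5 FPKM in Icariin 1, 2 and 3. The highest value was Icariin 2 and the lowest Control 1, and the other 4 libraries were interleaved. Its mean was 36.9 ± 32.0 FPKM (SD, n = 3) without Icariin and 69.8 ± 60.6 FPKM (SD, n = 3) with it. On the log2(FPKM + 1) scale the difference was 1.15 (standard error 1.08, 95% interval -1.19 to 3.49, adjusted p = 0.757 from limma), and without Control 1 it was -0.03. It was 1.93 without Control 2, 1.94 without Icariin 1 and 0.45 without Icariin 2. RefSeq lists 79 loci of pseudogene type named for Gapdh, 30 for Ldha and 1 for Ldhb. Fragments of Gapdh and Ldha could be shared with such copies, and how the authors' counting treated them is not given in the sources used here, so these levels are uncertain to that extent.

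**Figure D1:**
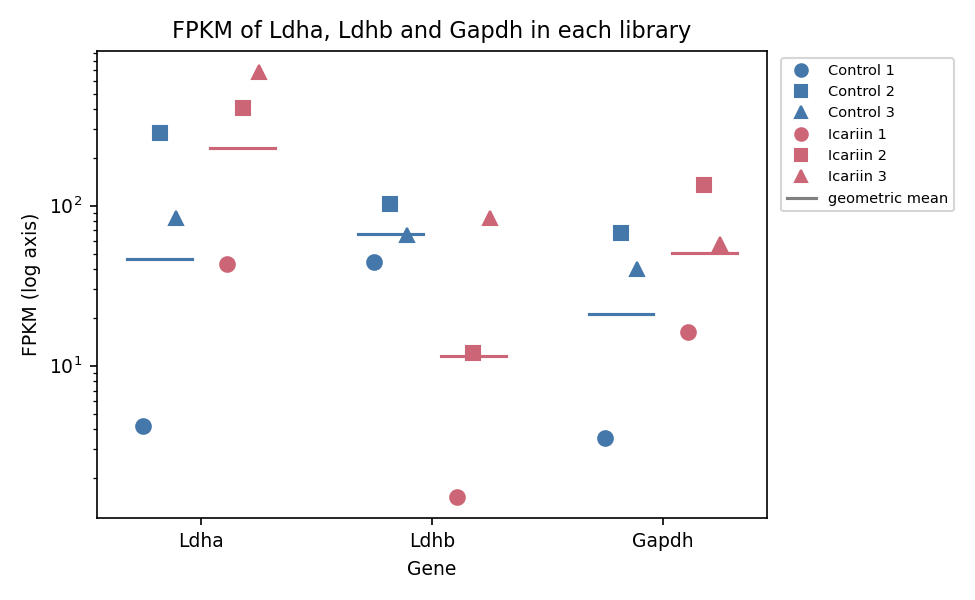
FPKM (log axis) of Ldha, Ldhb and Gapdh in the 3 Control and 3 Icariin libraries, with symbols for the replicate number and a bar at the geometric mean of each group. The groups overlap for each gene, and the lowest points are Control 1 for Ldha (4.18) and Gapdh (3.52) and Icariin 1 for Ldhb (1.52).

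A gene was called where its adjusted p was under 0.05 and its log2 difference was beyond 1 in size, the thresholds of the study. By this rule limma called none of the 3 genes, and 0 of all 10258 (0.0%). The study applied those thresholds in DESeq2 and reported genes that passed, in RNA it describes as from C2C12 myotubes. Limma on log2(FPKM + 1) is another test, so these 0 calls do not repeat the study's analysis. At an unadjusted p under 0.05, with no limit on the log2 difference, 1069 genes passed in limma (10.4%), with Ldha, Ldhb and Gapdh not among them. The log2 difference was beyond 1 in size in all 3, and in 28.4% of all genes tested. Ldha and Gapdh were among the 16.7% of all genes that were over 1 higher with Icariin, and Ldhb was among the 11.7% that were over 1 lower. In 0 of the 3 genes were the groups free of overlap, against 16.9% of all genes. The median difference of all genes tested was 0.11 on the same scale. Relative to it, Ldha was at 2.10, Ldhb at -2.38 and Gapdh at 1.04.

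**Figure D2:**
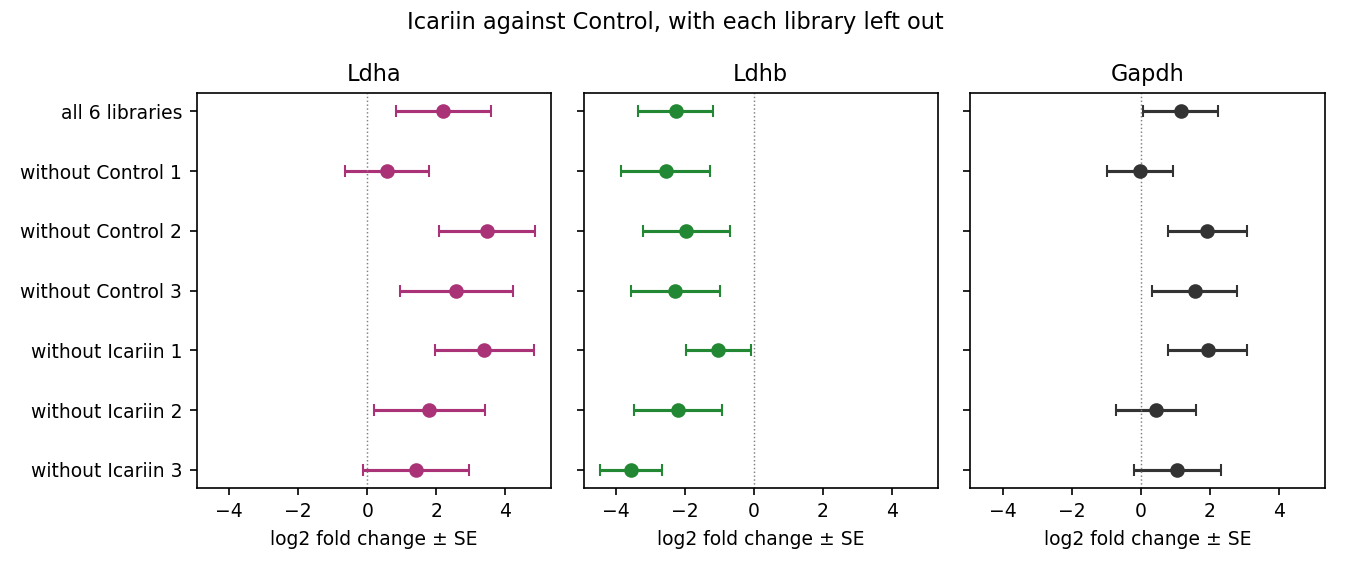
Difference between Icariin and Control libraries on the log2(FPKM + 1) scale (x axis, point ± standard error from limma) for each gene, with all 6 libraries and with each library left out (y axis). Ldha runs from 0.57 to 3.46, Ldhb from -3.57 to -1.03 and Gapdh from -0.03 to 1.94.

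The ratio of Ldha to Ldhb separated the groups. Within each library it does not depend on how libraries were scaled to each other. It was 0.0946 in Control 1, 2.75 in Control 2 and 1.28 in Control 3, and it was 28.5 in Icariin 1, 33.8 in Icariin 2 and 8.16 in Icariin 3. Every Icariin library lay above every control library, with a gap of 1.57 on the log2 scale between Control 2 and Icariin 3. Such separation, in either direction, was seen in 16.0% of all pairs of tested genes above 0 in every library and below 1e6 FPKM. Ldha made up 8.64%, 73.3% and 56.1% of the summed Ldha and Ldhb FPKM in Control 1, 2 and 3, against 96.6%, 97.1% and 89.1% in Icariin 1, 2 and 3. The mean log2 ratio was -0.53 ± 2.55 (SD, n = 3) in the control and 4.31 ± 1.12 (SD, n = 3) in the Icariin libraries, a difference of 4.84 with a standard error of 1.61, or 28.7-fold. The exact permutation test gave p = 0.1 (two-sided), the smallest p that 3 libraries against 3 allow, and 0.15 after Benjamini-Hochberg adjustment over the 3 ratios tested, so the design could not reach 0.05. When each library was left out in turn, the difference ran from 3.41 (without Control 1) to 5.84 (without Control 2).

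The parts played by each gene in this ratio were not alike in the libraries. In Icariin 1, where Ldha was below Control 2 and Control 3, the high ratio went with the lowest Ldhb of all libraries (1.52 FPKM). In Icariin 3, where Ldhb was within the control range, it went with the highest Ldha (685 FPKM). In Icariin 2 Ldha was higher and Ldhb lower than in every control. The summed FPKM of Ldha and Ldhb ran from 48.4 to 387 in the controls and from 44.9 to 769 with Icariin, so the sum overlapped between the groups where the ratio did not.

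Against Gapdh, the subunits differed. The ratio of Ldha to Gapdh was 1.19, 4.22 and 2.09 in Control 1, 2 and 3, and 2.66, 2.99 and 11.9 in Icariin 1, 2 and 3. These groups overlapped, and the log2 difference of 1.06 (standard error 0.87) had an exact permutation p of 0.4 (adjusted p = 0.4). It was 0.36 without Icariin 3, 0.62 without Control 1 and 0.52 between group medians. The ratio of Ldhb to Gapdh was 12.6, 1.53 and 1.64 in Control 1, 2 and 3, and 0.0933, 0.0884 and 1.46 in Icariin 1, 2 and 3. Here the groups did not overlap, but Icariin 3 and Control 2 were only 0.07 apart on the log2 scale. The ratio of Ldhb to another gene was lower with Icariin without overlap for 19.1% of genes. The log2 difference was -3.79 (standard error 1.67, exact permutation p = 0.1, adjusted p = 0.15), or 13.8-fold lower with Icariin. That difference was -2.79 without Control 1 and -5.12 without Icariin 3.

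**Figure D3:**
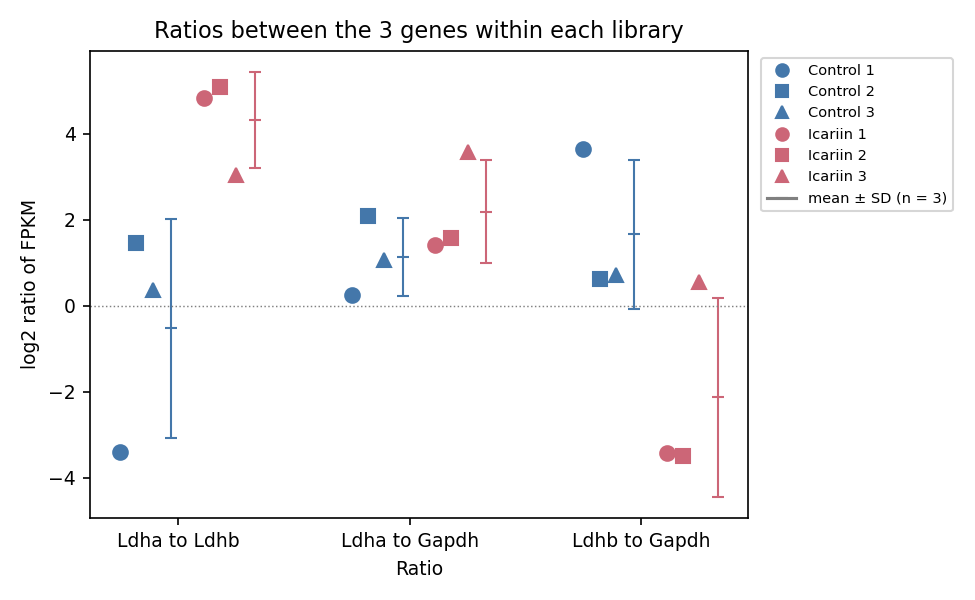
The log2 ratio of FPKM (y axis) for each pair of genes in each library, with the mean ± SD (n = 3) of each group beside the points. The Icariin points of Ldha to Ldhb (3.03 to 5.08) lie above all control points (-3.40 to 1.46), those of Ldha to Gapdh overlap the controls, and for Ldhb to Gapdh Icariin 3 (0.55) lies just under Control 2 (0.62).

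Groups that do not overlap are common among ratios in this table. Over all 51800931 pairs of tested genes above 0 in every library and below 1e6 FPKM, the ratio separated the groups in 16.0%, against 2 of the 3 ratios here. Both of those 2 ratios contain Ldhb, and each of the 3 ratios follows from the others. They are therefore not separate results, and their share cannot be read as an excess over 16.0%. The ratio of Ldha to another gene was higher in every Icariin library than in every control for 5.81% of 10178 genes and lower for 0.059%. The ratio of Gapdh to another gene was higher without overlap for 5.15% of genes and lower for 0.383%. For Ldhb the order was turned: its ratio to another gene was lower without overlap for 19.1% of genes and higher for 0.0393%. Gene pairs share libraries and genes, and these percentages describe the table without testing it.

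From library to library, Ldha and Gapdh went together. In the controls both were lowest in Control 1 and highest in Control 2, and with Icariin both were lowest in Icariin 1. Their order with Icariin was not the same, as Ldha was highest in Icariin 3 and Gapdh in Icariin 2. Over the 6 libraries, Pearson's r of log2(FPKM + 1) was 0.94 (exact permutation p = 0.00694, adjusted p = 0.0208 over the 3 pairs of genes) and Spearman's rho was 0.829 (exact permutation p = 0.0583, adjusted p = 0.175). Without Control 1 and Icariin 3, the libraries farthest from the median of Ldha, r was 0.967. Groups of 3 libraries are too few for a value within each group, and all libraries carry the same batch date in the labels.

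Ldhb did not show that relation over all libraries. For Ldhb and Gapdh, r was 0.145 and rho was 0.314 (exact permutation p = 0.776 and 0.564, the same after adjustment). Without Icariin 1 and Icariin 2, the farthest from the median of Ldhb, r was 0.931 over the 4 libraries left (the controls and Icariin 3). Because libraries were left out by their Ldhb values, that r only describes these 4 and shows no relation by itself. For Ldha and Ldhb, r was 0.216 and rho was 0.429 (exact permutation p = 0.639 and 0.419, adjusted p = 0.776 and 0.564), and r was 0.471 without Control 1 and Icariin 3. Within the controls all 3 genes had the same order, with Control 1 lowest, Control 3 between and Control 2 highest. With Icariin, Ldhb had the order of Ldha, from Icariin 1 through Icariin 2 to Icariin 3, which Gapdh did not share.

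**Figure D4:**
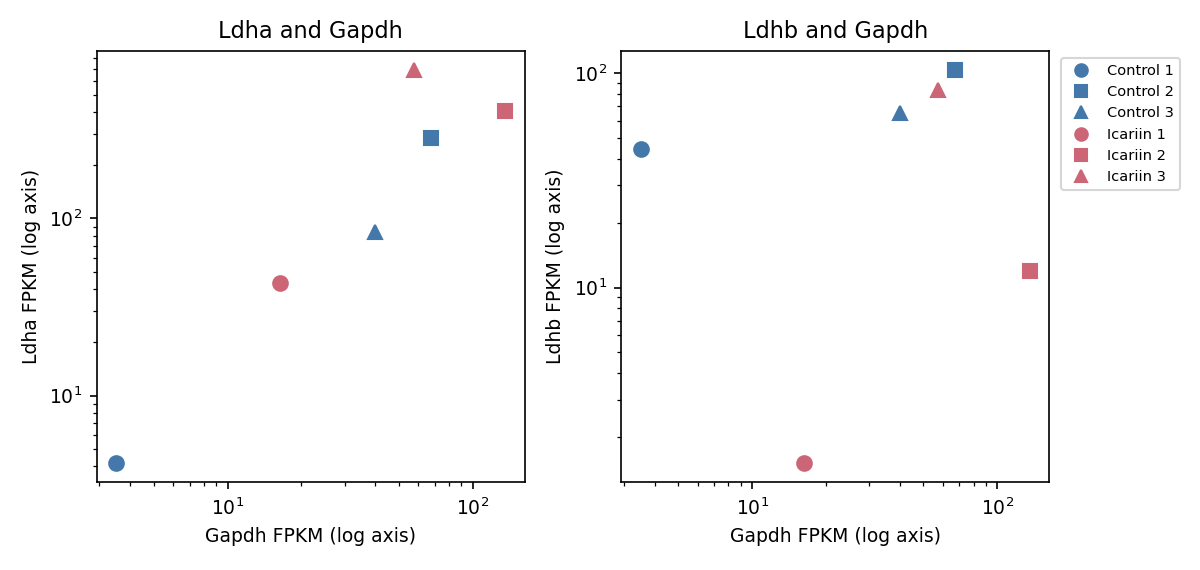
FPKM of Ldha (left) and Ldhb (right) against FPKM of Gapdh (both axes log), 1 point per library. Ldha is higher where Gapdh is higher from Control 1 (4.18 and 3.52) to Control 2 (284 and 67.3), with Icariin 3 (685 and 57.5) above that line, whereas for Ldhb Icariin 1 (1.52) and Icariin 2 (12.0) lie far below the other 4 libraries.

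Many genes shared these patterns. Among the other 10257 genes tested, Gapdh was number 50 in likeness to Ldha by Pearson's r over the 6 libraries, and Ldha was number 39 in likeness to Gapdh. An r over 0.9 was held by 137 genes with Ldha (1.34%), by 148 with Ldhb (1.44%) and by 112 with Gapdh (1.09%). The gene most like Ldha was ENSRNOG00000013714 (r = 0.998), which ran from 7.72 FPKM in Control 1 to 23.9 in Icariin 3. ENSRNOG00000031368 was most like Ldhb (r = 0.992), with 0.197 FPKM in Icariin 1 and 3.04 in Control 2, its highest. It was also low in Icariin 2 (0.963 FPKM), so with depth unknown its r rests on low values. ENSRNOG00000020653 was most like Gapdh (r = 0.996), with 6.75 FPKM in Control 1 and 47.4 in Icariin 2. These are descriptions over 6 libraries, which all the genes share.

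The range of the 3 genes among replicates was set beside that of all genes. Among the controls the highest Ldha value was 67.9 times the lowest, and 3.18% of 10179 genes above 0 in all libraries had a larger range, against a median of 3.62-fold. For Gapdh the range was 19.1-fold, exceeded by 10.9% of genes, and for Ldhb it was 2.33-fold, exceeded by 70.3%. With Icariin, the range was 15.8-fold for Ldha and 8.31-fold for Gapdh, exceeded by 12.2% and 22.9% of genes, and it was 55.1-fold for Ldhb, exceeded by 3.66%, against a median of 3.48-fold. Ldhb was thus the steadiest of the 3 genes in the controls and the least steady with Icariin. All 3 belonged to the decile of genes with the highest mean FPKM (1018 genes). In that decile and among the controls, 3.14% of genes had a larger range than Ldha, 10.0% than Gapdh and 68.3% than Ldhb. With Icariin, the shares were 11.0% for Ldha, 20.7% for Gapdh and 2.75% for Ldhb.

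**Figure D5:**
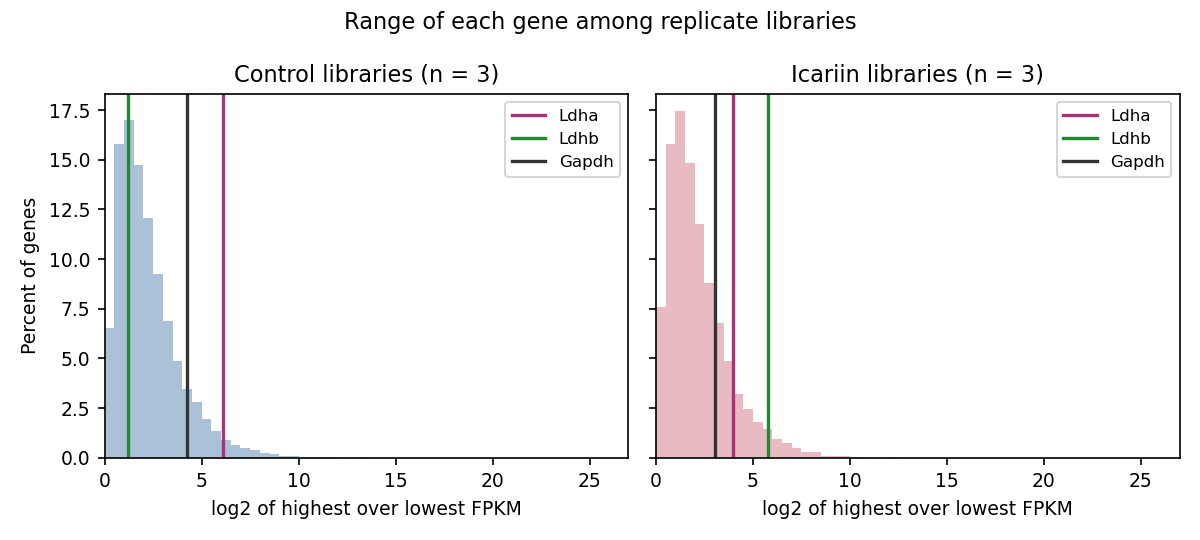
Distribution over 10179 genes of the log2 ratio of the highest to the lowest FPKM among the 3 Control (left) and the 3 Icariin libraries (right), in percent of genes, with lines at Ldha, Ldhb and Gapdh. Ldhb lies at 2.33-fold in the controls and at 55.1-fold with Icariin, while Ldha and Gapdh lie to the right of most genes in both groups.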

How the data were processed

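The authors deposited 1 table of FPKM values for 6 RNA-seq libraries, 1 column per library and no pooling. The processing notes of the submitters list Bowtie2, RSEM 1.3.1 and DESeq2 1.4.5. The rat annotation release, the build and the handling of fragments that match several loci are not given in the sources used here. Columns were assigned by name, which matched the sample titles except for the spelling of Icariin. Of 26407 rows, 2 repeats were dropped. FPKM values are not counts, so log2(FPKM + 1) was fitted in limma 3.58.1 (R 4.3.3; lmFit, then eBayes with its trend option). A gene was kept if 3 or more libraries reached 1 FPKM, which left 10258. The fit had no covariate, and p-values were adjusted by Benjamini-Hochberg. This scale understates the change of low genes. Ratios were taken without a pseudocount and tested by exact permutation. Scripts were tested on simulated data. Recovery of true changes was required there only at a spread smaller than that of these libraries. A lack of calls therefore does not show that real changes are absent. The precision rests on 3 libraries per group.

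The genes, ratios, motifs and lists were chosen with earlier results of these data known. The rule for named genes was the 3 genes and, for each, the gene most like it. The lists of glycolysis, lactate transport, pyruvate fate and marker genes were not run, for want of symbols. Alternatives covered the pseudocount, the filter, the scaling, limma's settings, the replicate block and each library left out. Equal totals without values of 1e6 FPKM or more were added after seeing the data.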

Additional observations from a re-analysis of the deposited data

How the results depend on the processing

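Of 51 combinations of an alternative with a gene, 50 kept the direction and stayed above the adjusted p threshold, and 1 reversed: Gapdh without Control 1 (-0.0326, standard error 0.96). All 30 combinations of an alternative with a ratio kept the direction; 3 of them, with group medians, had no test, and in the others the exact p could not pass the threshold by design. Leaving out each library in turn gave -0.03 to 1.94 for Gapdh, 0.57 to 3.46 for Ldha and -3.57 to -1.03 for Ldhb (log2 differences), and 3.41 to 5.84, 0.36 to 1.53 and -5.12 to -2.79 for the log2 ratios of Ldha to Ldhb, Ldha to Gapdh and Ldhb to Gapdh. The other alternatives gave 2.05 to 2.31 for Ldha, -2.53 to -1.80 for Ldhb and 0.99 to 1.25 for Gapdh. The adjusted p from limma ran from 0.443 to 1.0 for Ldha, from 0.408 to 1.0 for Ldhb and from 0.656 to 1.0 for Gapdh. With group medians, the log2 ratio of Ldha to Gapdh differed by 0.52. The count of genes called was 0 under each alternative except for unadjusted p-values. An unadjusted p under 0.05 from limma, with the log2 difference still beyond 1 in size, gave 1032. Median-of-ratios scaling moved the median difference of all genes from 0.11 to -0.01, and left Ldha at 2.05, Ldhb at -2.38 and Gapdh at 0.99.

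With the replicate block, limma gave an adjusted p of 0.443 for Ldha, 0.462 for Ldhb and 0.69 for Gapdh, and called 0 genes. The paired log2 ratio of Ldha to Ldhb differed by 8.23, 3.62 and 2.68 for the numbers 1, 2 and 3 (exact sign-flip p = 0.25, the smallest that 3 pairs allow). Over all genes tested, same-numbered libraries deviated together by a correlation of only -0.0203, 0.0213 and -0.0196. For Ldha, Ldhb and Gapdh, however, number 1 was the lowest library in both groups. With the block, the standard error went from 1.38 to 0.892 for Ldha, 1.09 to 0.951 for Ldhb and 1.08 to 0.809 for Gapdh. Whether same-numbered cultures were handled together is not given in the sources used here and was not tested.

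Depth is unknown, which limits what can be said of low values such as Ldhb in Icariin 1. A p that cannot go below 0.1 shows no stability.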
